A study of Homo sapiens with 4 samples.

Results

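Dense m6A clusters are stretches of messenger RNA in which many N6-methyladenosine (m6A) sites lie close together. A site counted as dense when at least 4 other tested sites of the same gene and strand lay within 100 nt of it on either side. Tested sites were those that all 4 libraries listed, each with 20 or more A plus G reads. Of 71478 tested sites in 10782 named genes, 2948 sites in 1014 genes (4.12%) were dense. Including the 7031 sites in no named gene, 78509 sites were tested. Sites of a gene were also joined into chains, in which no gap between neighbouring sites exceeded 100 nt, and a chain with at least 1 dense site was called a cluster. The 2948 dense sites fell into 1137 clusters, which held 7634 sites together with 4686 flanking sites of the same chains. Positions, read depth and the fact of being listed chose the sites, and a listed site has a level of at least 10% in each library. The size of the change with ascorbic acid entered the choice only through this minimum, which drops sites that fall below it. Within the spans of the clusters, beside these 7634 sites, 60 were listed in both control libraries and in no ascorbic acid library. Another 33 were listed in both ascorbic acid libraries and no control library. Like counts outside clusters are not given, so these numbers do not set clusters apart from other sites.

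The libraries came from HEK293T, an established human embryonic kidney cell line. The 2 ascorbic acid libraries were made from cells treated for 36 h, starting 24 h after seeding, and the 2 control libraries from the untreated line, labelled WT. Media in the treatment were changed every 6 h, no source used here states the dose, and 300 ng of mRNA entered each preparation. The labels leave it unsaid whether replicates came from separate cultures. The p-values therefore measure only the spread between these 4 samples, which may be technical.

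m6A is the most abundant internal modification of eukaryotic messenger RNA. It is installed on nascent transcripts by a complex of METTL3 and METTL14 with WTAP, VIRMA and other subunits, mostly at an adenosine followed by C in a short consensus, and it is removed by the dioxygenases FTO and ALKBH5, which use iron and 2-oxoglutarate. YTH domain proteins bind it and affect the stability and translation of the transcript. In GLORI, glyoxal and nitrite deaminate unmethylated adenosine, so that sequencing shows G, whereas m6A resists the reaction and shows as A. The level of a site is the percent of its A plus G reads that carry A.

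Reference sequence was at hand for 23 cluster sites, 11 of them dense. These lay in a RefSeq promoter window (300 bases, GRCh38.p14) or a RefSeq miRNA hairpin. The windows of LHFPL6, RNF217 and FAM89A are printed as examples of neighbouring sites of one cluster. RRNAD1 (3 sites) and UQCC3 (4 sites) also had several sites in a window and are not printed. LHFPL6, a tetraspan membrane protein gene, also had one of the largest falls with ascorbic acid, and all 5 sites of its cluster (chr13:39601195-39601317, minus strand) lay in the promoter window of LOC112268119, which runs on the opposite strand. Each line gives the genomic sequence on the strand of the transcript, 5′ to 3′, with the methylated A in the middle of the 5 capitals.
LHFPL6 site at 39601317: gcattacgGAACTgtggatta
LHFPL6 site at 39601255: cagtccctGAACActtacttg
LHFPL6 site at 39601249: ctgaacacTTACTtggggtcc
LHFPL6 site at 39601201: atccagccTGACTtgtactgg
LHFPL6 site at 39601195: cctgacttGTACTggagtaat
RNF217 site at 124962987: tggtcctGGACGtgctgggt
RNF217 site at 124963024: tcgccaagAGACAagtcttct
RNF217 site at 124963044: tgctccgtGTACTgcgtggag
RNF217 site at 124963131: ccagtgttGAACCctcccagc
RNF217 site at 124963185: ctcccaacGGATTccctctcc
FAM89A site at 231019921: gGGACTtgtcactg
FAM89A site at 231019880: cagcgactGGATTctggagtc
FAM89A site at 231019842: gagggatgTGACTgttgggaa

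The RNF217 sites are on the plus strand of chromosome 6, inside the promoter window of RNF217-AS1, and RNF217 encodes a ring finger protein. The FAM89A sites are on the minus strand of chromosome 1, inside the hairpin of MIR1182 (chr1:231019828-231019924). All 23 sites read A in the reference, and 21 of the 23 (91.3%) had the motif NNACN, an A followed by C. Among the other tested sites in hairpins or in promoter windows of the opposite strand, 323 of 469 (68.9%) had NNACN. One of the 23, a flanking site in RAVER1, lay in a promoter window of its own strand, and 602 of the 1467 other sites in such windows (41.0%) had NNACN. The motif GGACT stood at 3 of the 23 cluster sites (13.0%) and at 74 of those 469 sites (15.8%). These letters were read at the site, on the strand of the transcript only, and the 23 sites are too few to describe the clusters as a whole. No dense site lay in a promoter window of its own strand, a count of 0 of 2948, while 2.42% of the other sites of named genes did. Taken as independent, 2948 sites would allow a share of up to 0.102%, but sites of a cluster are not independent. Such a window reaches only 50 bases past the annotated start, where neighbours can lie mostly downstream. The rule itself thus disfavours dense sites there, and the contrast is a description.

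Sites a few bases apart in these sequences had very different levels. In LHFPL6 the site at 39601255 had 38.9 and 34.3% m6A in the ascorbic acid libraries, against 81.5 and 88.0% in the control libraries. The site 6 nt downstream at 39601249 had 17.3 and 15.9% with ascorbic acid, against 20.5 and 28.5% in control. The pair at 39601201 and 39601195 is also 6 nt apart. The first had 12.8 and 11.8% with ascorbic acid, against 40.9 and 34.2% in control, and the second 33.8 and 33.8% with ascorbic acid, against 67.0 and 63.8% in control. The site at 39601317 had 45.9 and 47.0% with ascorbic acid, against 72.7 and 77.6% in control. The groups did not overlap at any of the 5 sites, and each site passed as lower (edgeR adjusted p between 3.21e-16 and 0.0151).

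The FAM89A sites in the MIR1182 hairpin spanned nearly the whole scale. The site at 231019921 had 97.2 and 95.7% with ascorbic acid, against 97.7 and 99.0% in control, and the site at 231019842 had 90.1 and 91.7% against 97.0 and 96.8%. Between them, the site at 231019880 had 12.9 and 13.2% with ascorbic acid, against 14.3 and 12.9% in control (edgeR adjusted p = 0.870). The first pair passed as lower (adjusted p = 0.0159 and 2.72e-05). Of the 5 RNF217 sites shown, only that at 124963024 passed, with 38.2 and 36.8% with ascorbic acid, against 53.3 and 61.5% in control (adjusted p = 0.00527).

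The site lists held between 132989 and 144171 sites a library, with 22592887 to 28562744 A plus G reads summed over listed sites. Dense sites were covered more deeply than the others, with median A plus G reads of 182 and 206 in the ascorbic acid libraries and 176 and 177 in the control libraries, where other sites of named genes had 106 and 123 with ascorbic acid and 101 and 103 in control. The share of A left unconverted, as the authors give it per gene, had medians over dense sites of 3.68 and 3.82% with ascorbic acid and 3.63 and 5.09% in control, so control 2 was higher than the other 3 libraries. Its part in the results was not tested, and counts without control 2 stand beside the results below. EYA1, SALL1, HOXA10 and HOXC10, from the list of markers of the HEK293T lineage, had listed sites. Of the 7 tubule genes LRP2 alone had one, none of the 5 blood or 2 liver genes did, and of the 4 fibroblast genes COL1A1 did.

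Most clusters were short. A cluster held a median of 6 sites (range 5 to 18) over a median span of 199 nt (range 42 to 821 nt), and 430 of the 1137 had a single dense site. One cluster was found in 904 genes, 2 in 99 genes, 3 in 9 genes and 4 in the 2 genes ZCCHC14 and C15orf39. Neighbouring sites inside clusters lay a median of 37 nt apart, against 42 nt in the other chains, a difference that the rule itself favours. The commonest gap was 6 nt, at 158 of 6497 gaps (2.43%) in clusters and 700 of 24833 (2.82%) in other chains. No 2 sites of a cluster were adjacent bases. Protein-coding genes held 1106 of the 1137 clusters (97.3%). The midpoint of a cluster lay a median of 2863 nt of genomic distance from the annotated 3′ end of its gene, and dense sites lay at a median of 2950 nt, against 2774 nt for the other sites. The span of 136 clusters overlapped another RefSeq gene, whose reads could be counted with it.

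The m6A level of dense sites was lower with ascorbic acid. The median over the 2948 sites was 33.2 and 32.6% in the ascorbic acid libraries, against 37.7 and 39.9% in the control libraries. Both treated libraries were below both controls, and the group means were 32.9 ± 0.422% and 38.8 ± 1.60% (SD, n = 2 each), a difference of -5.92 percentage points. The exact two-sided permutation test over libraries gave p = 0.333, the smallest that 2 against 2 allows. The other sites of named genes had medians of 33.8 and 33.7% with ascorbic acid, against 40.4 and 42.0% in control, a difference of -7.45 points.

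Levels differed with the number of neighbours in both groups. Sites with no other tested site within 100 nt had a mean of the library medians of 30.3% with ascorbic acid and 37.3% in control (24292 sites). Sites with 2 neighbours had 37.1% and 45.2% (14653 sites). Just outside the threshold, the 6749 sites with 3 neighbours had 35.8% with ascorbic acid and 42.2% in control, and just inside it the 2312 sites with 4 neighbours had 34.4% and 40.4%. The 530 sites with 5 neighbours had 27.4% and 33.2%, and the 97 with 6 had 24.0% and 28.7%. Up to 6 neighbours, the level was thus highest at sites with 2 neighbours and lowest at those with 6. Only 9 sites had 7 neighbours. They lay in SRRM2, ATMIN, NECTIN2 and RRP1, with 45.6% with ascorbic acid and 49.3% in control. Depth moved with the count of neighbours, with a median of 83 A plus G reads in ascorbic acid 1 at sites without neighbours and 237 at sites with 6, and its part in these levels was not tested.

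**Figure D1:**
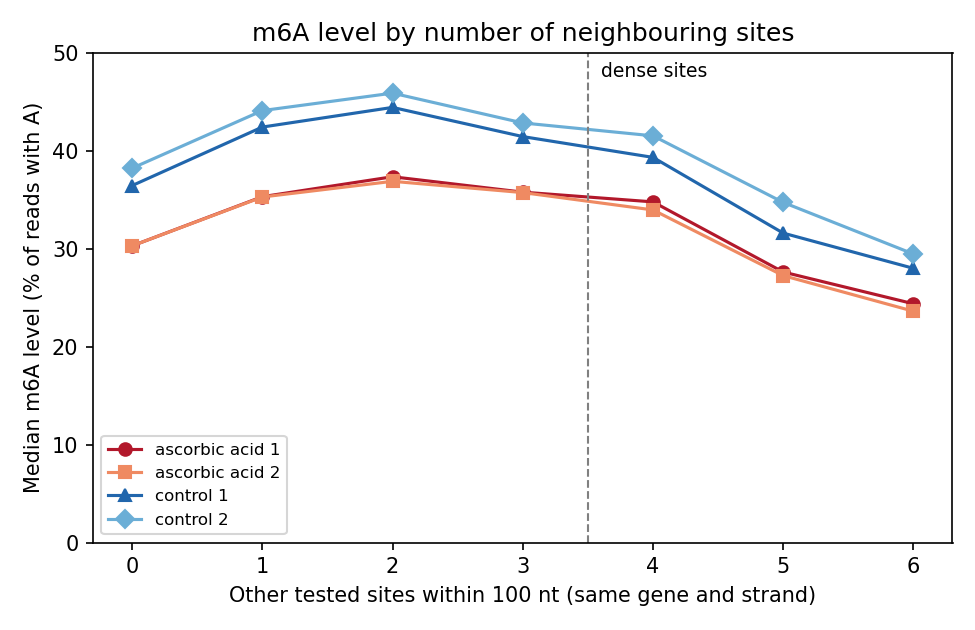
Median m6A level (percent of reads with A, y axis) of tested sites of named genes by the number of other tested sites within 100 nt (x axis), 1 line per library. The 2 ascorbic acid lines lie below the 2 control lines at every number of neighbours, and at 6 neighbours the library medians are 24.4 and 23.6% with ascorbic acid, against 28.0 and 29.5% in control.

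Set directly against each other, the difference between the groups was slightly smaller for dense sites than for other sites. Dense minus other was -0.64 and -1.11 points in the ascorbic acid libraries, against -2.72 and -2.08 points in the control libraries. The difference between the changes was 1.53 points (exact permutation p = 0.333, the smallest possible), and 0.847 points among sites with at least 50 reads in each library. Against the 15381 other sites of the 1012 of these genes that had any, it was 1.06 points, and the median over genes of dense minus other sites of the gene gave 0.699 points. Over all depths together, dense sites were the lower set in each library, by 1.64 ± 0.940 points on average (SD over 4 libraries). The exact sign-flip test gave p = 0.125, the smallest that 4 libraries allow. At like depth this order changed. With a mean of 200 to 500 reads, dense sites had medians of 32.9% with ascorbic acid and 39.1% in control. Other sites of that depth had 28.5% and 34.9%. Dense sites were also higher at 100 to 200 reads and from 500 on, lower at 20 to 50, and mixed between groups at 50 to 100.

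Over all depths together, dense sites start from a lower control level. Both sets were therefore also compared within classes of the level in control 1, with that library left out of the values. Weighted over classes, dense minus other was 0.864 and 0.693 points in the ascorbic acid libraries, against -0.07 in control 2, a difference of 0.853 points with no test, since 1 control library remained. With classes set in control 2 it was 0.652 points. The gap was widest for sites at 70 to 90% in control 1, where dense sites had 70.6 and 69.9% with ascorbic acid, against 80.1% in control 2. Other sites of that class had 68.4 and 68.0% with ascorbic acid, against 80.9% in control 2. Between 90 and 100% the gap was absent, with differences of -9.72 points for dense and -9.55 points for other sites.

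**Figure D2:**
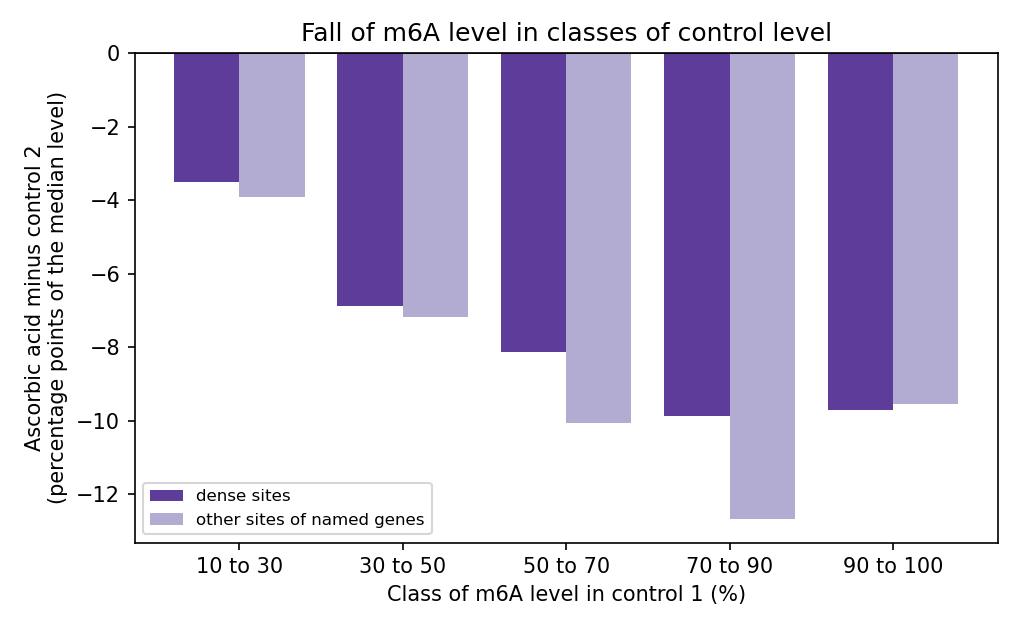
Mean of the 2 ascorbic acid medians minus the control 2 median, in percentage points (y axis), for sites in 5 classes of the m6A level in control 1 (x axis), dense sites beside other sites of named genes. The bars differ by 0.410 and 0.323 points in the lower classes, by 1.94 and 2.81 points from 50 to 70% and from 70 to 90%, and by -0.17 points from 90 to 100%.

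Site by site, the quasi-likelihood test of edgeR, run on the A and G reads, called 830 of the 2948 dense sites lower with ascorbic acid at a Benjamini-Hochberg adjusted p under 0.05. That is 28.2%, against 25.7% of all 78509 tested sites and 27.1% of the other sites of named genes. The 830 sites lay in 529 genes and had a median level of 55.0% with ascorbic acid and 73.8% in control. The count was 535 without ascorbic acid 2, 589 without control 2 and 457 with DESeq2. At 1707 dense sites (57.9%) both treated libraries were below both controls, against 55.4% of all tested sites, and at 111 (3.77%) both were above both controls, against 4.22%. Depth sets how many sites can pass, and in every depth class a smaller share of dense than of other sites was lower. With a mean of 50 to 100 reads 17.6% of dense sites were lower, against 20.8% of other sites at that depth. From 500 reads on the shares were 42.4% and 49.0%. A fall of over 20 points was seen at 172 dense sites (5.83%), against 8.80% of the other sites of named genes.

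Only 2 dense sites were higher with ascorbic acid, 0.0678%, against 0.22% of all tested sites, and they are named here after their values were seen. The site in ARID1A, a subunit of the SWI/SNF chromatin remodelling complex, had 90.6 and 88.4% with ascorbic acid, against 82.9 and 77.6% in control (chr1, position 26780431; adjusted p = 0.0207). The site in TBL1X, a component of the NCoR corepressor complex, had 19.0 and 18.0% with ascorbic acid, against 11.2 and 11.7% in control (chromosome X, position 9716356; adjusted p = 0.0152). The groups did not overlap at either site. Neither passed with DESeq2 or without either ascorbic acid library.

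Summed over the sites of a cluster, 664 of 1137 clusters (58.4%) were lower with ascorbic acid and none was higher, against 32% lower and 0.249% higher among all 40148 chains. The median summed level of a cluster was 41.3 and 40.8% with ascorbic acid, against 47.2 and 48.7% in control. In 986 clusters (86.7%) both treated libraries were below both controls, against 61.5% of all chains, and in 5 (0.440%) both were above, against 3.4%. Long chains sum more reads, and the 877 chains of 5 or more sites that held no dense site were lower in 58.0% of cases, a share close to that of the clusters. The median change was -5.30 points in clusters and -5.91 points in those 877 chains. The count of lower clusters was 400 without ascorbic acid 1, 374 without ascorbic acid 2, 511 without control 2 and 380 with DESeq2, with 0 higher clusters in each.

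**Figure D3:**
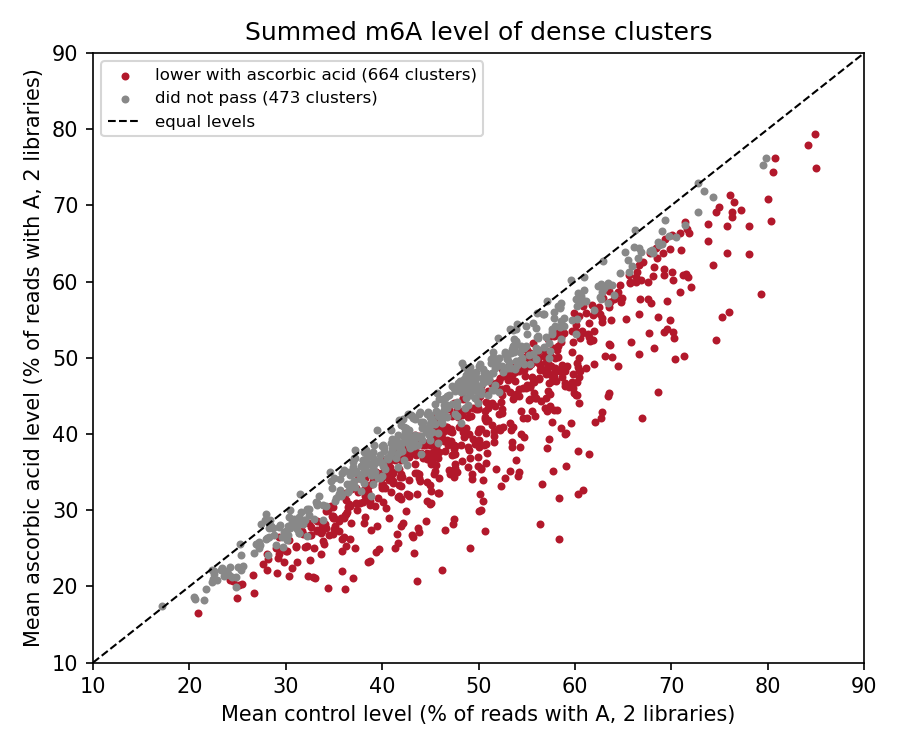
Mean summed m6A level of each of the 1137 clusters with ascorbic acid (y axis, 2 libraries) against control (x axis, 2 libraries), in percent of reads with A. The 664 red points passed as lower with ascorbic acid, the 473 grey points did not pass, and 1116 clusters lie below the dashed line of equal levels.

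Within a cluster, the levels of the sites were wide apart. The distance between the highest and the lowest site of a cluster had a median of 61.7 points with ascorbic acid and 70.8 points in control, and 971 clusters had a range over 50 points in control. The highest site had a median level of 79.2% with ascorbic acid and 91.7% in control. In 929 clusters (81.7%) the same site was the highest in both group means. Between single libraries it was the same in 84.4% of clusters for the ascorbic acid pair, 86.9% for the control pair, and 77.7% for ascorbic acid 1 and control 1. The highest site, picked in control 1, had medians of 78.3 and 77.4% with ascorbic acid, against 91.6% in control 2, while the 6497 remaining sites had 30.6 and 30.3% against 36.6%.

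The level of a site said little about that of its neighbour. Over 825 pairs of adjacent sites of a cluster at most 10 nt apart, Pearson's r between the levels was -0.0201 with ascorbic acid and -0.0638 in control. At gaps of 71 to 100 nt (1039 pairs) it was 0.0287 and -0.0273. Over the 5 classes of gap, r between the changes in points was lowest at 21 to 40 nt, at 0.127, and highest at 71 to 100 nt, at 0.237. On the log2 odds scale r between the changes lay between -0.0014 and 0.103. Neighbours share reads, libraries and often fragments, so these are descriptions. Every site was lower by any amount in 460 of the 1137 clusters, at least 3 sites passed as lower in 372, and every site passed in 12. Like counts for chains without a dense site are not given, so these do not set clusters apart. By site, 85.1% of dense sites and 83.8% of the other sites of named genes were lower by any amount. Flanking sites had a difference of -7.05 points between groups and dense sites one of -5.92 points.

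The cluster with the most dense sites lay in ATMIN, a zinc finger protein that interacts with the ATM kinase. It held 18 sites, 16 of them dense, over 578 nt (chr16:81044463-81045040, plus strand). Its summed level was 32.5 and 33.0% with ascorbic acid, against 35.2 and 38.4% in control. The groups did not overlap, the change was -4.04 points and the edgeR adjusted p was 0.0244, but it was 0.223 without ascorbic acid 1, 0.171 without ascorbic acid 2, 0.138 without control 2 and 0.173 with DESeq2. A pair of sites near full methylation, toward either end of the cluster, stood out from sites mostly under 50%. The highest, at 81044522, had 91.9 and 89.6% with ascorbic acid, against 98.5 and 98.5% in control (adjusted p = 5.72e-05). The largest change was at 81045026, with 33.3 and 29.8% with ascorbic acid, against 46.8 and 43.8% in control (adjusted p = 0.00893). In all, 4 of the 18 sites passed.

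PLOD1 had the cluster with the next most dense sites, 12 of 15 over 470 nt (chr1:11974832-11975301, plus strand). It encodes a lysyl hydroxylase of collagen, an enzyme that itself uses iron, 2-oxoglutarate and ascorbate. The summed level was 39.2 and 38.2% with ascorbic acid, against 49.8 and 50.3% in control, lower by 11.3 points (log2 odds change of -0.67, edgeR adjusted p = 5.92e-08). Levels alternated along the cluster. The site at 11975235 had 60.6 and 58.4% with ascorbic acid, against 93.7 and 95.2% in control, the largest change of the cluster (adjusted p = 3.74e-17). The site at 11974875 had 17.2 and 18.9% against 18.2 and 18.2% (adjusted p = 0.975). The highest, at 11975301, had 83.0 and 88.6% with ascorbic acid, against 97.5 and 97.8% in control. All sites of the cluster under 35% in control changed by less than 6 points, and the 7 sites over 40% in control all passed. The lowest sites had little room to fall, since a listed site has at least 10% in each library. That at 11974918, for example, had 11.8 and 10.3% with ascorbic acid, against 14.6 and 14.5% in control.

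PCNX3, of the pecanex family of membrane proteins, had a cluster of 13 sites, 10 dense (chr11:65618258-65618754, plus strand). Its summed level was 28.8 and 28.7% with ascorbic acid, against 46.3 and 48.7% in control, a change of -18.7 points (log2 odds change of -1.16, adjusted p = 2.2e-10), and 10 of the 13 sites passed. At the site with the largest change, 65618516, the level was 25.8 and 34.8% with ascorbic acid, against 84.7 and 83.8% in control (adjusted p = 2.53e-14). The neighbouring site upstream of it, at 65618470, had 59.7 and 53.1% with ascorbic acid, against 52.0 and 57.5% in control (adjusted p = 0.877). These neighbours thus exchanged their order between the groups.

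**Figure D4:**
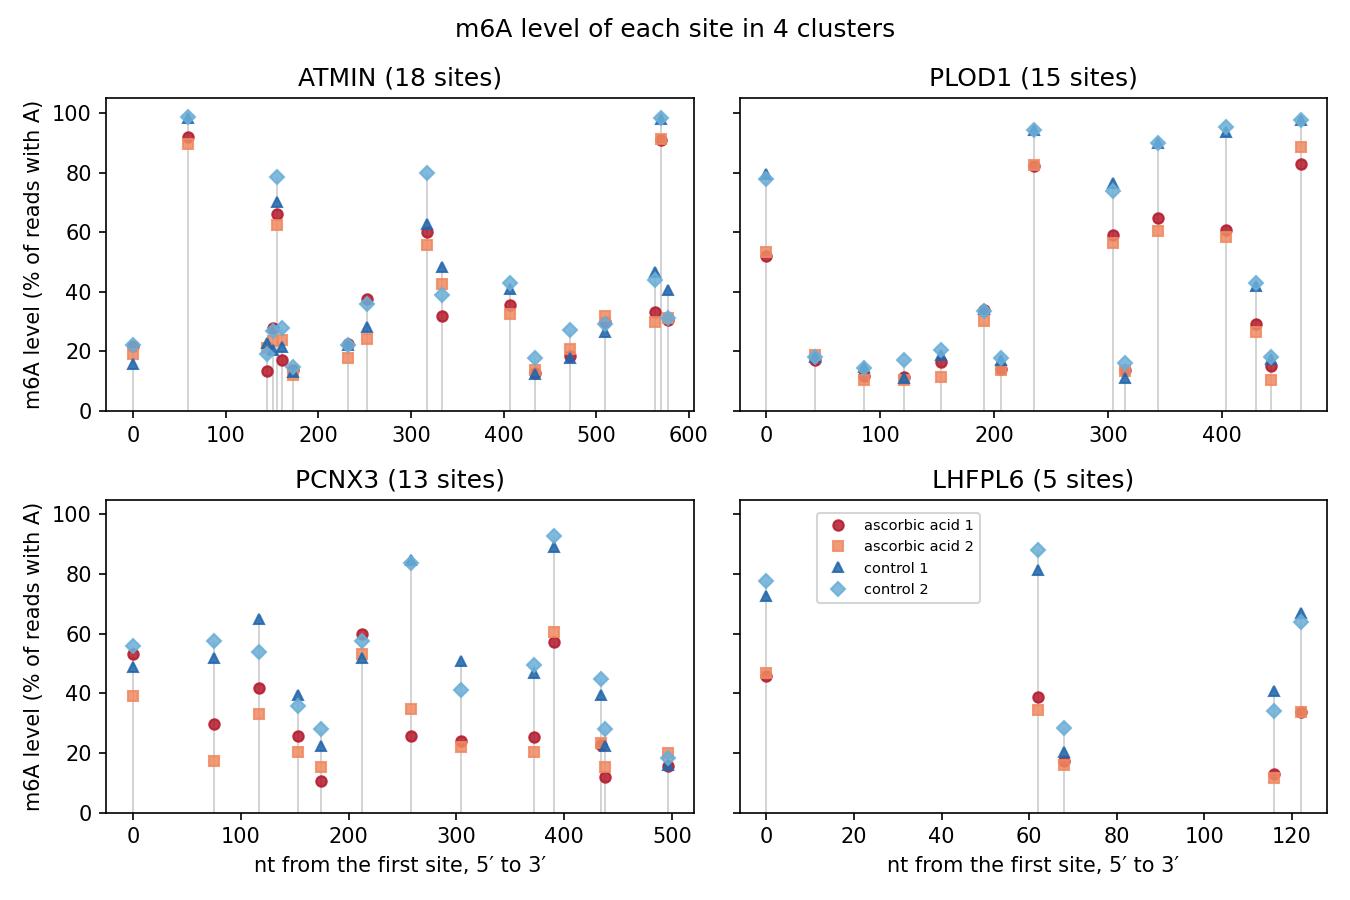
m6A level of each site (y axis, percent of reads with A) by distance from the first site of its cluster (x axis, nt, 5′ to 3′ along the transcript strand) in ATMIN, PLOD1, PCNX3 and LHFPL6, 1 point per library and site. The ATMIN points of the groups largely overlap, while 10 of 13 sites of PCNX3 and all 5 sites of LHFPL6 passed as lower with ascorbic acid.

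The other clusters with most dense sites changed little. SRRM2, a scaffold of nuclear speckles and the spliceosome, had 10 of 11 sites dense within 264 nt (chr16:2767250-2767513). Its summed level was 20.9 and 20.8% with ascorbic acid, against 23.2 and 25.2% in control (adjusted p = 0.00394), and no site of it exceeded 60% in control. RPRD2, which binds the tail of RNA polymerase II, had 36.8 and 40.3% with ascorbic acid, against 41.8 and 45.1% in control (adjusted p = 0.0266), with no single site passing. FOXK2, a forkhead transcription factor, had 17 sites over 707 nt, with 44.8 and 44.5% with ascorbic acid, against 49.3 and 47.6% in control (adjusted p = 0.0258). Its highest site, at 82601989, had 84.4 and 84.5% with ascorbic acid, against 97.9 and 97.5% in control (adjusted p = 3.06e-12). CDV3 and PPRC1, a coactivator related to PGC-1, fell by 3.38 and 3.53 points (adjusted p = 0.0446 and 0.0158). Each of these 5 calls was lost without ascorbic acid 1 (adjusted p from 0.107 to 0.392), without ascorbic acid 2 (from 0.0526 to 0.256) and with DESeq2 (from 0.0502 to 0.243). Without control 2 those of RPRD2, CDV3 and PPRC1 were lost, and without control 1 that of FOXK2 (adjusted p = 0.0505).

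The 8 clusters named for their fall had changes between -32.1 and -24.1 points, and their calls held in each leave-one-out fit, with limma, with DESeq2 and with the replicate block. They were chosen for the size of this fall, so the values describe them. TANGO6, named for a part in transport and Golgi organization, came first (chr16:68860162-68860371, plus strand), with 25.8 and 26.6% with ascorbic acid, against 58.8 and 57.9% in control (log2 odds change of -1.98, adjusted p = 4.87e-13). Its site at 68860219 had 13.0 and 16.1% with ascorbic acid, against 85.8 and 79.0% in control. Its sites at 68860197 and 68860249, on either side of that one, did not pass, with 21.2 and 12.2% with ascorbic acid, against 13.2 and 23.0% in control for the first, and 21.2 and 19.1% against 13.9 and 17.0% for the second. The fall was thus carried by 4 of the 6 sites, each above 65% in both controls.

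PACS2, a sorting protein at contacts between endoplasmic reticulum and mitochondria, had 31.4 and 33.9% with ascorbic acid, against 61.6 and 60.2% in control (chr14:105394758-105394904). Its site at 105394758 had 14.3 and 18.3% against 71.2 and 68.3%. LHFPL6, whose sites are printed above, had a summed level of 29.2 and 27.3% with ascorbic acid, against 55.9 and 56.9% in control (adjusted p = 4.61e-12). MAN1A2, a Golgi mannosidase that trims N-glycans, had 31.5 and 32.8% with ascorbic acid, against 57.0 and 63.7% in control. In ARHGEF12, a guanine nucleotide exchange factor, the levels were 31.4 and 31.7% with ascorbic acid, against 55.7 and 61.0% in control. The treated libraries lay far below the controls in each of these, and every site of PACS2 and LHFPL6 passed.

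RAVER2, an RNA-binding protein, had all 7 sites of its cluster lower, with a summed level of 25.6 and 24.5% with ascorbic acid, against 48.0 and 50.3% in control (chr1:64777701-64778017). DICER1, the ribonuclease that releases mature miRNAs, had 37.6 and 37.2% with ascorbic acid, against 59.1 and 63.8% in control (chr14:95103492-95103690). Its site at 95103511 had 44.5 and 37.9% with ascorbic acid, against 89.3 and 87.0% in control (adjusted p = 3.03e-17), and the neighbouring site upstream of it, at 95103531, 64.6 and 67.5% against 94.9 and 95.9% (adjusted p = 8e-14). TBC1D14, a TBC domain protein that acts in autophagy, varied most within groups, with 45.3 and 38.9% with ascorbic acid, against 61.7 and 72.2% in control (adjusted p = 7.37e-07).

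Among clusters of at least 10 sites, the 3 with the smallest changes were in TBC1D22A, GNA12 and ZBED4. TBC1D22A had 31.7 and 32.5% with ascorbic acid, against 31.7 and 31.3% in control (adjusted p = 0.815). GNA12, a G protein alpha subunit, had 34.9 and 35.6% against 35.3 and 36.8% (adjusted p = 0.704), and ZBED4, a BED zinc finger protein, 43.4 and 42.4% against 43.2 and 44.6% (adjusted p = 0.691). The groups overlapped in all 3. The GNA12 cluster overlaps AMZ1 and that of ZBED4 overlaps ALG12. Within ZBED4, the highest site, at 49885277, had 88.7 and 86.1% with ascorbic acid, against 93.9 and 97.8% in control and passed by itself (adjusted p = 0.00112).

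Of 24 listed genes of the m6A machinery, all with tested sites, 8 carried 9 clusters, of which 5 were lower and none higher, with a median change of -4.60 points, beside 58.4% lower and -5.30 points over all clusters. The 5 were 3 without ascorbic acid 1 or without ascorbic acid 2, and 2 with DESeq2. VIRMA, the scaffold subunit of the writer complex, had 32.3 and 31.5% with ascorbic acid, against 40.6 and 45.0% in control (adjusted p = 3.98e-06). METTL14, the RNA-binding partner of METTL3, had 42.1 and 46.1% against 53.3 and 49.5% (adjusted p = 0.00806, but 0.183 without ascorbic acid 1 and 0.0725 without control 1). WTAP, which anchors the writer in nuclear speckles, had 41.7 and 35.7% with ascorbic acid, against 45.6 and 45.6% in control (adjusted p = 0.00611, but 0.328 without ascorbic acid 2 and 0.0896 with DESeq2), and its cluster overlaps SOD2.

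The reader YTHDF3 had 44.1 and 44.4% with ascorbic acid, against 53.1 and 51.5% in control (adjusted p = 0.000685). The cluster of the reader YTHDF1 did not pass, with 43.9 and 41.5% with ascorbic acid, against 45.0 and 47.7% in control (adjusted p = 0.109). RBM15, an adaptor that brings the writer to RNA, passed with 44.1 and 42.2% with ascorbic acid, against 46.9 and 48.6% in control (adjusted p = 0.0227, but 0.0964 without ascorbic acid 1, 0.298 without ascorbic acid 2 and 0.0832 without control 2). Neither of the 2 clusters of its paralog RBM15B passed (adjusted p = 0.0927 and 0.366), nor did that of CBLL1, a ubiquitin ligase bound to the writer (adjusted p = 0.700).

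The list of histone methyltransferases and Polycomb genes, chosen by symbol, had 17 clusters in 14 genes. Of these, 14 (82.4%) were lower and none higher, beside 58.4% lower over all clusters, with a median change of -7.92 points. The count was 11 without ascorbic acid 1, 8 without ascorbic acid 2, 12 without control 2 and 8 with DESeq2. The largest falls were in SETD5, a SET domain protein, with 34.1 and 32.7% with ascorbic acid, against 56.3 and 56.9% in control (adjusted p = 3.06e-11), and in KMT2D, a methyltransferase of histone H3 lysine 4. The longer of the 2 KMT2D clusters had 45.0 and 46.0% with ascorbic acid, against 68.8 and 68.4% in control, with 9 of 10 sites lower (adjusted p = 6.71e-12). The 6 sites of a SETDB1 cluster, in a gene for a methyltransferase of histone H3 lysine 9, all passed, with a summed level of 26.8 and 27.5% with ascorbic acid, against 43.5 and 44.2% in control.

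The list also takes in histone demethylases, which are dioxygenases that use iron and 2-oxoglutarate. KDM6A had 30.7 and 30.9% with ascorbic acid, against 45.2 and 44.6% in control (adjusted p = 2.12e-07), and KDM3B 33.6 and 34.1% against 43.8 and 44.0% (adjusted p = 6.18e-06). The cluster of KDM8, which is annotated with the same fold, did not pass (adjusted p = 0.0647). The cluster of SETD2 and the 13-site cluster of ASXL1 passed (edgeR adjusted p = 0.00935 and 0.0129), but not with DESeq2 (0.144 and 0.127). Both calls were also lost without ascorbic acid 2 (log2 odds change of -0.458 and -0.309) and without control 2 (-0.452 and -0.219). That of ASXL1 was lost without ascorbic acid 1 as well (-0.284). The other ASXL1 cluster, of 7 sites, did not pass (edgeR adjusted p = 0.553). It had 58.6 and 55.9% with ascorbic acid, against 57.5 and 59.6% in control.

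Among transcripts often studied as m6A targets, 6 genes had 7 clusters and 4 (57.1%) were lower, beside 58.4% of all clusters, or 3 without ascorbic acid 1, without ascorbic acid 2 or without control 2. The acetyltransferase EP300 had 38.0 and 35.2% with ascorbic acid, against 53.1 and 54.6% in control (adjusted p = 6.92e-06), and its paralog CREBBP 63.4 and 62.9% against 68.3 and 68.6% (adjusted p = 0.0174, but 0.112 without ascorbic acid 1, 0.152 without ascorbic acid 2 and 0.0509 without control 2). The retinoic acid receptor RARA had 46.5 and 43.9% with ascorbic acid, against 58.0 and 62.5% in control (adjusted p = 2.9e-06). The Hippo kinase LATS1 had one cluster lower, with 45.9 and 43.4% against 55.0 and 57.0% (adjusted p = 0.000181), and one of 5 dense sites with 28.0 and 26.0% against 29.8 and 33.0% that did not pass (adjusted p = 0.112). JUN, a subunit of the transcription factor AP-1, had 38.3 and 37.6% with ascorbic acid, against 37.1 and 39.6% in control (adjusted p = 0.936).

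ZNF genes had 39 clusters in 33 genes, of which 13 (33.3%) were lower, with a median change of -4.36 points, beside 58.4% and -5.30 points over all clusters, and the count was 7 without ascorbic acid 2 and 6 with DESeq2. ZNF839 had 37.0 and 41.7% with ascorbic acid, against 58.9 and 55.7% in control (adjusted p = 3.64e-06), and ZNF398 45.1 and 46.0% against 52.9 and 53.6% (adjusted p = 0.000383). The cluster of ZNF747 did not pass (adjusted p = 0.341). Of the 3 clusters of ZNF687, that with the most dense sites and another did not pass (adjusted p = 0.604 and 0.0995), while the one of 5 sites passed (0.0114, but 0.127 without ascorbic acid 1, 0.0756 without ascorbic acid 2 and 0.0820 without control 2). The list was chosen by symbol and holds the antisense gene ZNF503-AS2, whose cluster is also among the antisense ones. Of 13 clusters of homeobox, SOX, FOX and KLF factors, 7 (53.8%) were lower, beside 58.4% of all clusters, but 2 without ascorbic acid 1, 1 without ascorbic acid 2 and 2 with DESeq2. HOXD9 had 47.8 and 47.2% with ascorbic acid, against 56.9 and 60.3% in control (adjusted p = 3.63e-05), and HOXD13 61.8 and 59.9% against 63.1 and 68.1% (adjusted p = 0.0186, but 0.0833 without ascorbic acid 1, 0.265 without ascorbic acid 2 and 0.219 without control 2). The 12-site cluster of FOXO3 had 38.9 and 38.0% with ascorbic acid, against 39.1 and 40.9% in control (adjusted p = 0.466).

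Ribosomal protein genes, of which 42 had tested sites, had a single cluster with a single dense site, in RPL4, with 31.2 and 30.7% with ascorbic acid, against 37.0 and 38.3% in control (adjusted p = 4.26e-05). Of 9 clusters of antisense and LINC genes, 2 (22.2%) were lower, beside 58.4% of all clusters, in TTN-AS1 (adjusted p = 0.00716, but 0.0861 without ascorbic acid 1) and TP73-AS1 (adjusted p = 0.00193, but 0.0589 without ascorbic acid 2). Of the listed long noncoding RNAs, TUG1 alone had clusters, and it had 3. RefSeq annotates this gene as protein-coding, so its clusters also count among those of protein-coding genes here. The one of 12 sites had 28.1 and 28.6% with ascorbic acid, against 30.0 and 32.2% in control (adjusted p = 0.0960). That of 11 sites had 27.2 and 28.5% against 29.5 and 27.3% (adjusted p = 0.781). That of 5 sites passed with 30.5 and 30.6% against 34.6 and 38.6% (adjusted p = 0.0047, but 0.0725 without ascorbic acid 1, 0.0752 without ascorbic acid 2 and 0.0653 without control 2).

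Clusters of the same gene did not always move alike, although the difference between them was not tested. SRCAP, the catalytic subunit of a chromatin remodeller, had 2 neighbouring clusters that passed, with 25.6 and 25.0% with ascorbic acid, against 31.8 and 32.6% in control (adjusted p = 3.73e-06), and with 26.7 and 26.4% against 34.8 and 37.2% (adjusted p = 1.48e-07). The cluster further along the gene had 40.0 and 41.0% with ascorbic acid, against 43.6 and 41.8% in control (adjusted p = 0.210). In TUBGCP6, a component of the gamma-tubulin ring complex, the changes of the 3 clusters within chr22:50220549-50221666 were -3.60, -7.05 and -10.7 points (adjusted p = 0.0752, 0.0086 and 8.92e-06). The middle one did not pass without ascorbic acid 2 (adjusted p = 0.152) or without control 2 (0.121). None of the 3 clusters of FZD7, a Wnt receptor, passed. Of the 4 clusters each of ZCCHC14 and C15orf39, 1 and 2 passed, and none of these did without ascorbic acid 1 or ascorbic acid 2.

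Clusters far from the 3′ end of their gene had the larger changes, a description with no test. For the 137 clusters of protein-coding genes more than 20000 nt from the annotated 3′ end, the median summed level was 37.8 and 37.4% with ascorbic acid, against 48.0 and 49.5% in control, and 108 (78.8%) were lower. For the 503 clusters between 1000 and 5000 nt from it, the median was 43.0 and 42.7% with ascorbic acid, against 47.7 and 48.9% in control, and 261 (51.9%) were lower. Of the 240 clusters under 1000 nt and the 226 between 5000 and 20000 nt, 62.1 and 58.8% were lower. Distances are along the genome and include introns, and whether a cluster lay in an internal exon could not be read.

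The larger difference far from the 3′ end was also seen outside clusters. Dense sites over 20000 nt from the 3′ end differed by -9.38 points between groups, and other sites at that distance by -11.9 points. Between 1000 and 5000 nt the differences were -5.43 and -6.16 points. Of the 8 clusters named for their fall, 6 lay over 20000 nt from the 3′ end, with LHFPL6 farthest at 258364 nt, while DICER1 lay at 17363 nt and PACS2 at 3316 nt. Along the genome, each of these 6 lay nearer the annotated 5′ end of its gene than the 3′ end. Depth moved with position, from a median of 1648 summed reads a cluster under 1000 nt to 883 over 20000 nt, and its part in these changes was not tested.

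**Figure D5:**
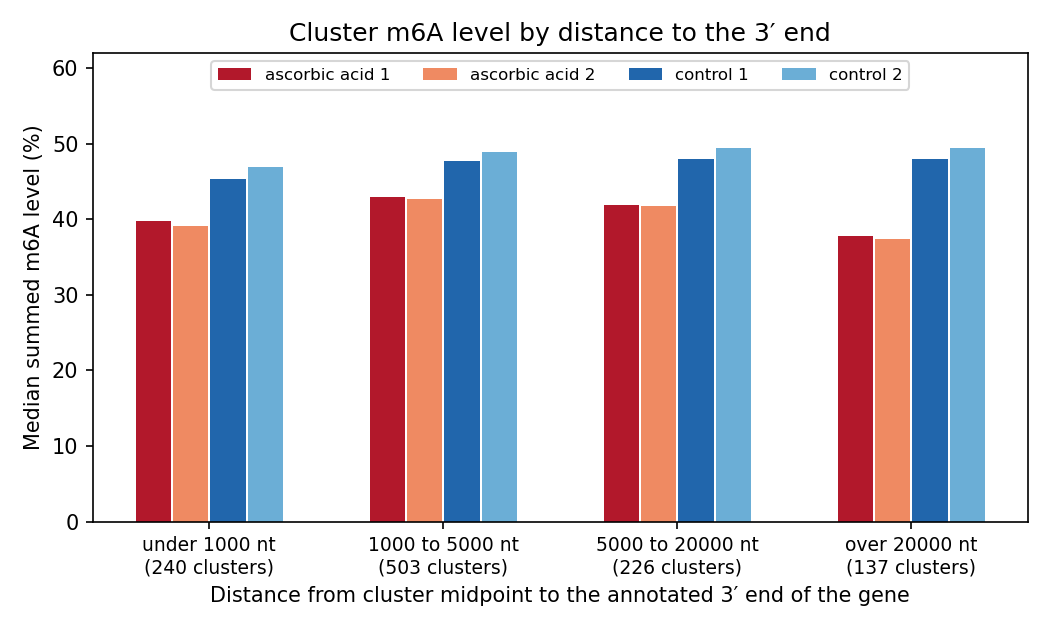
Median summed m6A level of clusters of protein-coding genes (y axis, percent of reads with A) in each library, by distance from the cluster midpoint to the annotated 3′ end (x axis). Control medians are between 45.4 and 49.5% at every distance, and the ascorbic acid medians are lowest, at 37.8 and 37.4%, over 20000 nt.

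The gene coverage that the authors list beside each site was compared to see whether transcripts with clusters changed in amount. Genes with clusters had median coverage of 128 and 142 with ascorbic acid and of 121 and 127 in control, in a unit that the sources used here do not define. After scaling, limma called 1 of the 1014 genes higher and 0 lower, against 0.253% higher and 0.0422% lower of all 11848 genes, and 143 of the 1014 had an unadjusted p under 0.05, beside 1710 of the 11848. Without control 1 it called 10 higher (0.986%) and 7 lower (0.690%), against 1.99% and 1.03% of all genes. Of the genes named by the rules given below, none passed. The smallest limma adjusted p was 0.103, in TANGO6, with scaled coverage of 82.7 and 84.4 with ascorbic acid, against 67.4 and 68.1 in control. Among the genes named for their fall, coverage was higher in TANGO6, RAVER2, PACS2, MAN1A2, ARHGEF12 and DICER1 (log2 change of 0.131 to 0.302). It was lower in LHFPL6 and TBC1D14 (-0.146 and -0.0641). Values of the genes named after their levels were seen are not given singly. In bulk RNA, fewer cells with a transcript and less of it per cell cannot be told apart.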

How the data were processed

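The 4 GLORI libraries came as 1 table of called sites each. A plus G and A read counts per site are the authors' deposited counts. The level is a fraction deposited by the authors, equal to A over A plus G within 5e-06. The unconverted share is 100 minus a second deposited fraction, the conversion rate, as a percent. Gene coverage is a signal deposited by the authors with its unit not stated. The p-values of the deposited tables are the authors' test of each site. Per the submitters' processing notes, Trimmomatic 0.39, STAR and hg38 were used. The sources used here name neither a site caller nor any removal of duplicates, so reads may not be independent molecules. Listed sites start at 15 A plus G reads, 5 reads with A and a level of 10%, and losses below 10% were not seen.

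A quasi-likelihood test (edgeR 4.0.16) on the A and G counts of 78509 sites and of 40148 chains had a term per library and a treatment effect on A, and its two-sided p-values were adjusted by Benjamini-Hochberg over all units. A read over several sites counts at each. limma 3.58.1 (log2 odds with 0.5 added, and log2 coverage scaled by the median ratio per library) and DESeq2 1.42.0 were alternatives or the coverage test. On simulated data made from these libraries, 200 of the 78509 sites and 200 of the 40148 chains were changed by 1 on the log2 odds scale. Of these, 34% of sites and 54.5% of chains were called. The simulated reads left out the spread between replicates, and far fewer units were changed than passed in the real data. The shares are therefore not the recovery in the real data. R 4.3.3 and Python 3.11.15 were used.

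Same-numbered libraries did not deviate together in level (correlation of same-numbered deviations -0.0035 over clusters). With 2 libraries a group, this cannot show whether they were handled together, and the labels do not say. Of the 1014 genes, 994 matched a RefSeq symbol (GRCh38.p14), 16 a synonym and 4 neither. Sequences come from the RefSeq promoter and miRNA tables of that build.

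The members and the gene lists were chosen with earlier results of these data known. Named clusters, 1 per gene, are the 8 with the most dense sites, the 8 largest falls and up to 5 rises (none met the terms) among clusters past the threshold with a median of 50 reads a library and no overlap between groups, the 3 smallest changes among clusters of at least 10 sites, and up to 3 genes a list. Further genes of the lists and genes with several clusters were named after their values were seen. Lists were m6A machinery, long noncoding RNAs, often studied m6A targets, ZNF genes, ribosomal proteins, histone methyltransferases and Polycomb genes, homeobox, SOX, FOX and KLF factors, and antisense and LINC genes.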

Additional observations from a re-analysis of the deposited data

How the results depend on the processing

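The direction of the counts was the same under all alternatives run, with more sites and clusters lower than higher. Leaving out 1 library gave 535 to 725 dense sites lower and 0 to 2 higher, 374 to 716 clusters lower and 0 to 0 higher, a difference of the medians of -7.05 to -4.78 points, a difference between dense and other sites of 1.21 to 1.85 points and, matched on level, of 0.652 to 0.939 points, and 0 to 10 genes with clusters higher and 0 to 7 lower in coverage. DESeq2 gave 457 dense sites lower and 0 higher, and 380 clusters lower. With at least 6 others within 100 nt, 28 sites and 34 clusters were lower and 0 sites higher, the difference between dense and other sites was 2.74 points and the matched one 0.664. With at least 4 others within 50 nt, 20 sites and 29 clusters were lower and 0 sites higher, the medians differed by -3.57 points, dense from other sites by 3.79 and matched by 0.347. These settings keep fewer sites. With 50 reads in each library the difference was 0.847 points, and with classes set in control 2 the matched one was 0.652. Without sites that have a listed site 6 nt away, 1 dense site was higher. The matched value without control 1 was not run, since that library sets the classes. Without control 2 no control library would remain in it. With a replicate block, 865 dense sites were lower and 3 higher, and 680 clusters lower, and coverage gave 4 genes higher, as it did with no scaling per library. Same-numbered libraries did not deviate together in level, and the block changed no other count by over 1.5 times. Of 133 alternative values for the clusters with most dense sites, largest falls and smallest changes, 108 kept their side of the threshold and 25 did not pass. Setting the other sites of the same genes alone against dense sites was added after seeing the data. With 2 libraries a group, depth and the listing minimum of 10% limit which falls could be seen.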
